A study of Rattus norvegicus with 14 samples.

Results

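Transcripts of translation initiation and elongation factors were followed in the dentate gyrus of 14 rats. The set holds every probe set of the array with a single gene symbol that starts with Eif1 to Eif6 or Eef, which gave 66 of the 15866 probe sets other than controls. They stand for 56 of the 10411 genes named by a single symbol, and 8 of these genes have several probe sets. A further 4 probe sets carry such a symbol together with another one and were left out. Of the 66 members, 58 had a mean of at least 4 on the log2 scale over the 14 arrays and were tested, which covers 53 genes.

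Every animal was a male Long-Evans rat between 3 and 4 months old, and the labels name no transgene or drug. All had learned a standard water maze earlier, and after a gap of 2 to 3 weeks each swam 8 trials in a single session in another pool. In the learning group (7 rats) the visible platform stayed in place and orienting cues were present, whereas in the control group (7 rats) the platform moved from trial to trial without informative cues. Both groups swam a probe trial of 90 s at 1 h after the session and tissue was taken straight afterwards, so controls share the swimming, the new pool and the earlier training. Total RNA of the microdissected dentate gyrus of each rat was hybridised to 1 Affymetrix RAE230A array. The titles call the arrays biological replicates.

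Array medians lay between 5.09 and 5.12, and any pair of arrays correlated at 0.995 to 0.998 across probe sets. Prox1, which defines dentate granule cells, had a mean of 10.3 ± 0.17 (SD, n = 7) in learning rats and differed by 0.076 ± 0.11 log2 units (SE) between groups. The mean of the 4 measured granule cell markers of 7 listed ranged from 8.28 to 8.54 in control and from 8.40 to 8.69 in learning rats, with Dsp higher in learning rats by 0.44, Neurod1 by 0.014 and Calb1 at -0.029. The mean of 6 measured CA1 markers of 10 listed ranged from 6.79 to 7.88 in control and from 7.28 to 7.75 in learning rats. Wfs1 differed most, by 0.95, with control arrays from 5.48 to 8.90. Mpped1 differed by 0.37, Fibcd1 by 0.31, Ccn3 by 0.30, Lmo3 by 0.0025 and Itpka by -0.048. The mean of 3 measured choroid plexus markers of 7 ranged from 5.91 to 6.79 in control and from 5.68 to 5.98 in learning rats. Of these, transthyretin (Ttr) differed by -1.78, Enpp2 by -0.040 and Kcne2 by 0.18, so the mean followed Ttr. The mean of 9 measured meningeal markers of 11 ranged from 5.06 to 7.77 and from 4.87 to 7.89, and that of 8 microglial markers from 7.28 to 7.69 and from 7.26 to 7.497. The microglial mean differed by -0.15, with Aif1 at -0.37, P2ry12 at -0.33, C1qc at -0.29, C1qa at -0.22, Csf1r at -0.056 and Ctss at -0.024. Tmem119 (0.050) and C1qb (0.038) were above 0. The means of CA3, oligodendrocyte, endothelial, interneuron, blood and astrocyte markers differed by at most 0.053 in size, but these means hide single markers that differed more. Of the 5 measured CA3 markers, Bok (0.29), Chgb (0.16) and Grik4 (0.13) were higher in learning rats, and Cadm1 and Elavl4 (both -0.27) lower. Among astrocyte markers Aqp4 was at -0.23 and Apoe at 0.061, and among interneuron markers Gad1 was at -0.19 and Npy at 0.12. The blood value rests on 1 marker of 4. In dissected tissue, fewer cells of a type and less RNA per cell cannot be told apart.

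Protein synthesis starts when eIF2, loaded with GTP and initiator tRNA, joins the small ribosomal subunit together with eIF1, eIF1A, eIF3 and eIF5, and the complex is brought to the capped end of an mRNA by eIF4F. eIF2B recharges eIF2 with GTP, and kinases that phosphorylate eIF2 slow that step. During elongation eEF1A delivers aminoacyl-tRNA, the eEF1B complex recharges eEF1A, and eEF2 moves the ribosome along. New protein synthesis is known to be needed for lasting memory, and phosphorylation of eIF2, of the 4E-binding proteins and of eEF2 are classic control points in hippocampal neurons. The arrays measure the mRNAs of these factors, not their protein or phosphorylation.

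Transcripts of the factors differed little between learning and control rats. In limma's moderated test, 0 of 58 tested probe sets had an adjusted p below 0.05, and the share over all 9387 tested probe sets was 0%. At an unadjusted p below 0.05 there were 7 of 58, or 12.1%, close to the 13.1% of all tested probe sets. Of the 58 members, 6 were higher in learning rats at that p and 1 was lower. Of all 9387 tested probe sets, 604 (6.43%) were higher at that p and 626 (6.67%) lower. The 7 members were Eif2s3, Eif2s2, Eif3a, Eef1a2 and both probe sets of Eif4g2 on the higher side and Eif2b1 on the lower. In 0 of the 58 did the groups separate without overlap, against 0.405% of all tested probe sets. The lowest adjusted p among the members was 0.233.

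The differences were also small. Their median was 0.021 log2 units, against 0.0050 over all tested probe sets. The median of the factors was 0.0058 without learning replicate 6 and 0.0057 with the CA1 marker mean as a covariate, close to that of all. Of the 58, 33 were above 0 and 25 below, so 56.9% were above 0, against 51.7% of all. The median absolute difference was 0.065, against 0.082 over all tested probe sets. A difference of at least 0.2 in either direction was found for 5 members, or 8.62%, against 14.2% of all. Among the brighter probe sets (mean 8 or more), the same size was reached by 10.8% of 37 members and 13.2% of 3792 tested probe sets. In data of this size simulated with independent noise, 200 of the 9387 probe sets were changed. At the adjusted threshold, 19.3% of changes of 0.25 log2 units and 80.0% of changes of 0.5 were called. With fewer changed probe sets that threshold is stricter. These shares can therefore overstate what would be called in the real data, where 0 of 9387 passed. Most changes of the smaller size would thus go uncalled here.

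**Figure D1:**
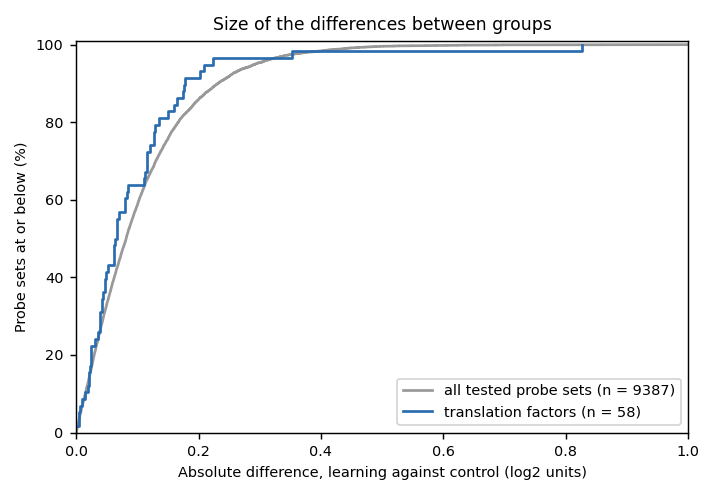
Cumulative share (vertical axis, percent) of probe sets whose absolute difference between learning and control rats (horizontal axis, log2 units) is at or below a value, for the 58 tested translation factor probe sets and all 9387 tested probe sets. The curve of the factors lies to the left of the other over most of the range, with medians of 0.065 and 0.082, and ends at 1 probe set, Eif2b1, at 0.83.

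**Figure D2:**
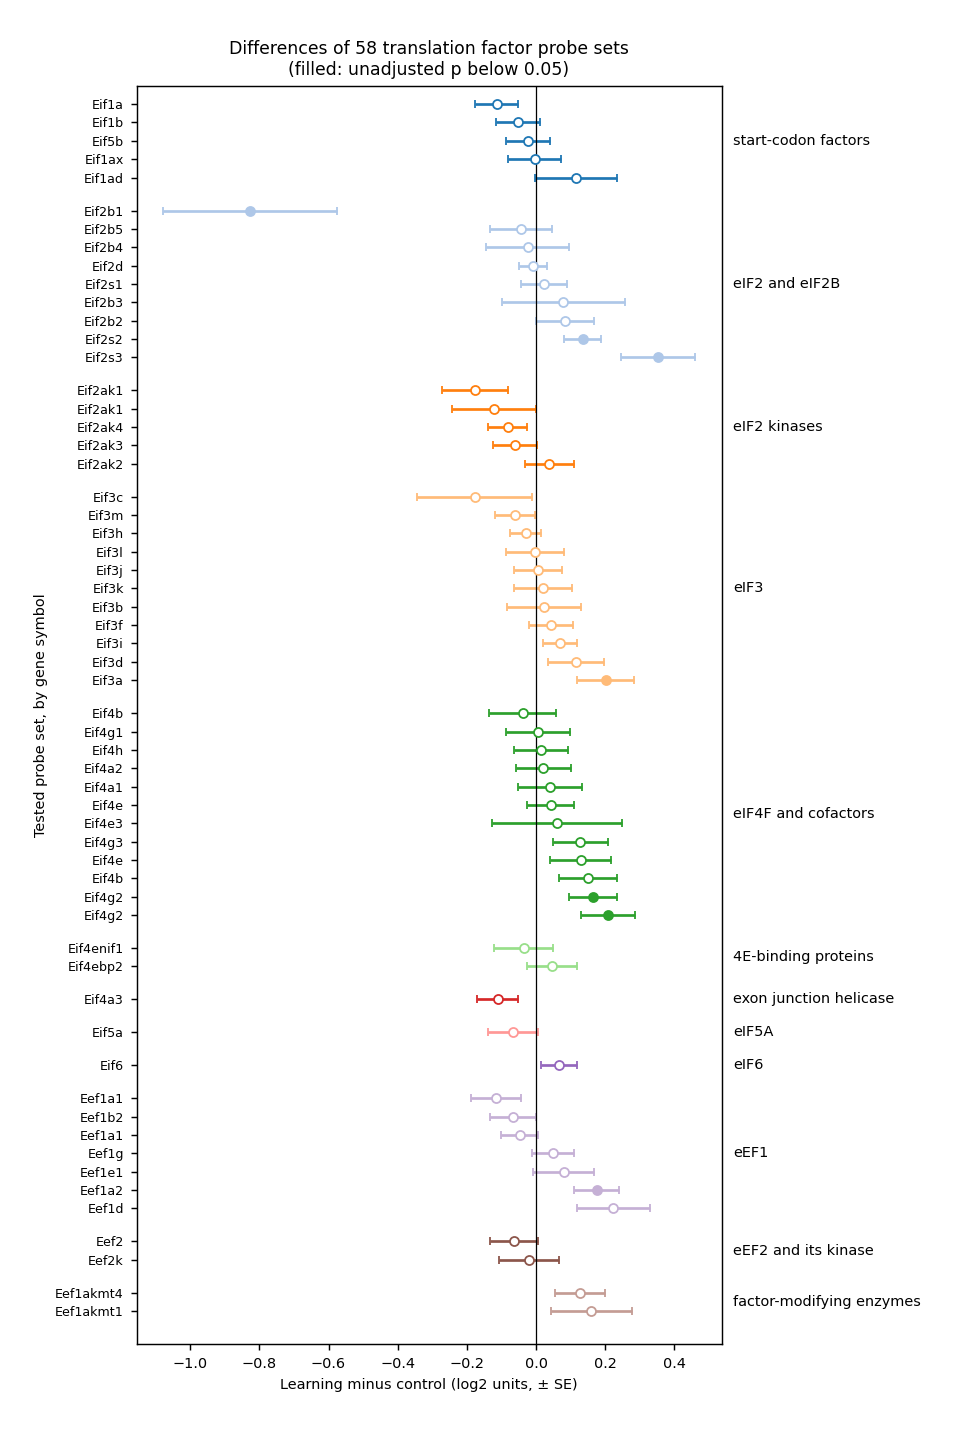
Learning minus control (horizontal axis, log2 units) with its standard error for each of the 58 tested probe sets, grouped by factor complex; filled points have an unadjusted p below 0.05. Most points lie within 0.2 of 0, Eif2b1 lies far to the left at -0.83, and 11 of the 12 eIF4F probe sets lie right of 0.

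The largest contrasts lay among the parts of the eIF2 cycle. Eif2s3 encodes the gamma subunit of eIF2, which binds GTP and the initiator tRNA. Its level was lowest 7.68, median 7.96 and highest 8.39 on the log2 scale in control rats, and lowest 7.96, median 8.34 and highest 8.64 in learning rats. All 7 learning arrays lay above the control median, and 4 control arrays lay below every learning array, while control replicate 7, the highest control, lay above 6 of the learning arrays. Learning rats were higher by 0.35 ± 0.11 (SE), or 1.28-fold (limma; unadjusted p = 0.0045, adjusted p = 0.233). The difference lay between 0.30 and 0.42 with any 1 array left out. RefSeq lists a Y-linked copy, Eif2s3y, and all rats were male. Whether the probe set also reads that copy was not tested.

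Eif2s2 encodes the beta subunit, which contacts eIF5 and eIF2B. It ranged from 8.60 to 8.81 in control rats (median 8.74) and from 8.69 to 8.94 in learning rats (median 8.86). Of the learning arrays, 6 lay above every control array, and learning replicate 4 was the exception at 8.69. The difference was 0.13 ± 0.053 (SE), or 1.10-fold, with an adjusted p of 0.315 in limma. Its unadjusted p in limma was 0.052 without control replicate 5, and 0.062 with a beta-actin measure of RNA integrity as a covariate. Eif2s1 encodes the alpha subunit, the one that stress kinases phosphorylate. Control rats averaged 9.04 ± 0.08 and learning rats 9.06 ± 0.15 (SD, n = 7), which differ by 0.024 (95% confidence interval -0.12 to 0.16). The 3 subunits of 1 complex thus gave differences of 0.35, 0.13 and 0.024.

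eIF2B has 5 subunits, and all were measured. Eif2b1 encodes the regulatory alpha subunit, through which phosphorylated eIF2 acts. It was lowest 5.047, median 5.579 and highest 6.005 in control rats, and lowest 4.03, median 4.57 and highest 5.49 in learning rats. Control arrays numbered 4 above every learning array, and 4 learning arrays lay below every control array. The learning arrays were themselves spread: replicates 1, 3, 6 and 7 lay between 4.03 and 4.57 and replicates 2, 4 and 5 between 5.08 and 5.49, inside the control range. The difference was -0.83 ± 0.25 (SE), or 1.77-fold lower in learning rats, the largest of all members (limma; unadjusted p = 0.0048, adjusted p = 0.233). With a mean of 5.11, close to the array medians, this probe set is dim. With 1 array left out the difference ran from -0.96 (without learning replicate 2) to -0.72 (without learning replicate 7).

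The other eIF2B subunits gave no such contrast. Eif2b2 (beta) differed by 0.084 ± 0.084 (SE), Eif2b3 (gamma) by 0.079 ± 0.18 (SE) and Eif2b4 (delta) by -0.024 ± 0.12 (SE). Eif2b5 encodes epsilon, the subunit that carries the exchange activity. It was at 4.13 ± 0.18 in control and 4.09 ± 0.17 in learning rats (SD, n = 7), near the filter level, and its second probe set, with a mean of 3.19, was not tested. Eif2d, which can place initiator tRNA without eIF2, differed by -0.0093 ± 0.040 (SE). Over the 9 tested probe sets of eIF2 and eIF2B, 5 were above 0 and 4 below, with a median of 0.024. Its sign was not stable: it was -0.0087 without learning replicate 1, also below 0 without learning replicate 4 or 6, and 0.049 without control replicate 5.

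**Figure D3:**
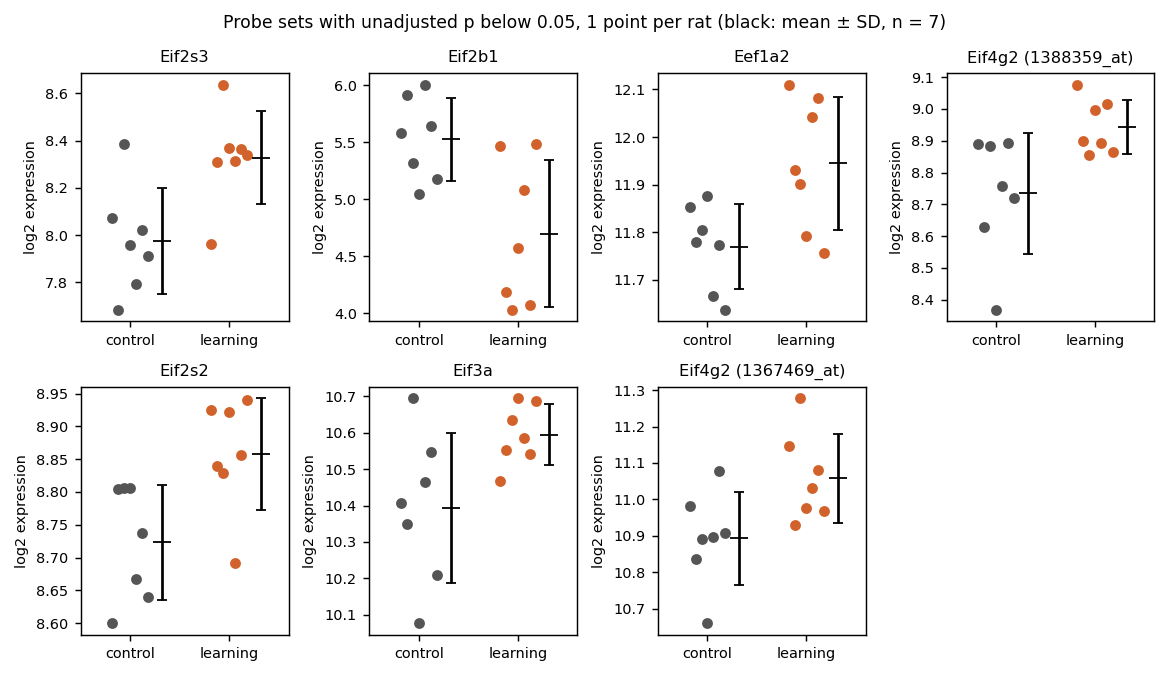
Expression (vertical axes, log2, with a range of their own in each panel) of the 7 probe sets with an unadjusted p below 0.05, as 1 point per rat in control and learning rats with the mean ± SD. The groups overlap in every panel; for Eif2s2, 6 of the 7 learning points lie above all control points, and for Eif2b1 the learning points spread from 4.03 to 5.49.

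eIF2 kinases each answer to another stress. Eif2ak1 encodes HRI, the heme-regulated kinase. One probe set ranged from 7.34 to 7.91 in control and from 7.34 to 7.63 in learning rats, a difference of -0.18 ± 0.096 (SE; adjusted p = 0.455 in limma), and the other differed by -0.12 ± 0.12 (SE). No learning array of the first probe set reached the control median of 7.78. Eif2ak3 encodes PERK, the kinase of the endoplasmic reticulum, and differed by -0.061 ± 0.064 (SE). Eif2ak4 encodes GCN2, which senses uncharged tRNA and has been linked to memory in mice, and differed by -0.082 ± 0.055 (SE). Eif2ak2 encodes PKR, the kinase activated by double-stranded RNA, and differed by 0.039 ± 0.070 (SE). Thus 4 of 5 kinase probe sets were below 0, against 4538 of all 9387 tested probe sets, and 0 had an unadjusted p below 0.05. The median of the 5 was -0.082. Both Eif2ak1 probe sets are among the 4, so these are not 5 separate observations.

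Start-codon factors were measured with 5 probe sets, of which 4 were below 0, against 4538 of all 9387 tested probe sets. Eif1 and Eif5 themselves had no probe set with a single symbol, so the group does not cover them. Eif1ax encodes eIF1A, which keeps the scanning complex open, and was at 9.84 ± 0.14 in control and 9.84 ± 0.15 in learning rats (SD, n = 7). The related Eif1a differed by -0.11 ± 0.062 (SE; adjusted p = 0.456 in limma). Eif1b, a close relative of the start-codon gatekeeper eIF1, differed by -0.052 ± 0.065 (SE), and Eif5b, the GTPase that joins the ribosomal subunits, by -0.022 ± 0.064 (SE). Eif1ad, which shares a domain with eIF1A, differed by 0.12 ± 0.12 (SE). Its learning arrays ran from 5.01 to 6.01, past both ends of the control range of 5.26 to 5.57.

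eIF3, the largest initiation factor, holds the small subunit ready for mRNA. Its 11 tested subunit genes had a median difference of 0.020, with 7 above 0 and 4 below. The median ran from 0.00047 without control replicate 3 to 0.050 without learning replicate 3, and was -0.0022 without the array of highest meningeal marker mean in each group. Eif3a, the scaffold subunit, was lowest 10.08, median 10.41 and highest 10.70 in control rats, and lowest 10.47, median 10.58 and highest 10.70 in learning rats. All 7 learning arrays lay above the control median and 5 control arrays below every learning array, but only 1 learning array lay above every control array. Eif3a was higher in learning rats by 0.20 ± 0.082 (SE), or 1.15-fold, with an adjusted p of 0.329 in limma, and by 0.15 without control replicate 1, its lowest array. Its unadjusted p in limma was above 0.05 without control replicate 1 (0.058), control replicate 2 (0.059), learning replicate 1 (0.051) or learning replicate 2 (0.051). The same held without the array of highest meningeal marker mean in each group (0.059).

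The other core subunits split in sign. Eif3c, which forms the core with Eif3a, differed by -0.18 ± 0.17 (SE), with control arrays from 8.87 to 9.97 and learning arrays from 8.71 to 9.59. Eif3b differed by 0.024 ± 0.11 (SE), and its learning arrays were more spread (SD 0.29) than its control arrays (SD 0.10). Eif3d, which can bind the cap of some mRNAs itself, differed by 0.12 ± 0.082 (SE), and Eif3i by 0.070 ± 0.049 (SE). Eif3f and Eif3h, which are outer subunits, differed by 0.044 ± 0.063 (SE) and -0.030 ± 0.044 (SE). For Eif3h the 95% confidence interval ran from -0.12 to 0.064. Eif3j, Eif3k, Eif3l and Eif3m lay between -0.064 and 0.021. Eif3e had no probe set with a single symbol.

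eIF4F joins the cap-binding protein eIF4E, the scaffold eIF4G and the helicase eIF4A. Of 12 tested probe sets for these and their cofactors, 11 were above 0, against 51.7% of all tested probe sets, with a median of 0.052. The median lay between 0.041 and 0.093 with any 1 array left out, the highest without learning replicate 5, and was 0.029 at the lowest over the other alternatives. Of the 11, Eif4g1, Eif4a1, Eif4a2 and the brighter Eif4e probe set turned below 0 in at least 1 fit with 1 array left out. The 1 below 0, an Eif4b probe set, turned above 0 without the array of highest meningeal marker mean in each group. Several of these probe sets belong to 1 gene, so they are not 12 separate observations. Eif4g2, also known as DAP5, is an eIF4G relative that lacks the eIF4E-binding part and serves cap-independent initiation, and it was higher on both of its probe sets.

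On the first Eif4g2 probe set, control rats were lowest 8.37, median 8.76 and highest 8.89, and learning rats lowest 8.86, median 8.90 and highest 9.08. Of the learning arrays, 5 lay above every control array. The difference was 0.21 ± 0.078 (SE), or 1.16-fold, with an adjusted p of 0.289 in limma. On the second, control rats ran from 10.7 to 11.1 and learning rats from 10.9 to 11.3, a difference of 0.17 ± 0.069 (SE; adjusted p = 0.338 in limma). Control replicate 1 was the lowest array on both, and without it the differences were 0.15 and 0.13. The second probe set had an unadjusted p above 0.05 in limma without control replicate 1 or 3 or learning replicate 5 or 7, at 0.052 to 0.067. Without the array of highest meningeal marker mean in each group that p was 0.062. Across the 14 arrays, after subtracting group means, the 2 probe sets had a Pearson correlation of 0.62.

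The remaining eIF4F parts lay closer to 0. Eif4e binds the cap and is the target of the 4E-binding proteins. Its bright probe set averaged 9.54 ± 0.12 in control and 9.58 ± 0.13 in learning rats (SD, n = 7), which differ by 0.042 (95% confidence interval -0.11 to 0.19). Its dim probe set, with a mean of 4.04, differed by 0.13 ± 0.089 (SE). Eif4g1, the main scaffold, differed by 0.0050 ± 0.092 (SE), and its second probe set was too dim to be tested. Eif4g3, the third scaffold, differed by 0.13 ± 0.080 (SE). The helicases Eif4a1 and Eif4a2, the second of which prevails in brain, differed by 0.040 ± 0.093 (SE) and 0.022 ± 0.080 (SE). Eif4b and Eif4h stimulate the helicase. Eif4b differed by 0.15 ± 0.084 (SE) on one of its probe sets and -0.039 ± 0.096 (SE) on its second, and the pair were unrelated after subtracting group means (Pearson correlation 0.0098 over 14 arrays), and Eif4h by 0.015 ± 0.079 (SE). Eif4e3, a cap-binding relative, differed by 0.061 ± 0.19 (SE).

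4E-binding proteins hold eIF4E back until mTORC1 phosphorylates them. Eif4ebp2, the form that prevails in brain, averaged 6.98 ± 0.16 in control and 7.02 ± 0.10 in learning rats (SD, n = 7), which differ by 0.047 (95% confidence interval -0.11 to 0.20). Eif4ebp1 and Eif4ebp3 had means of 2.16 and 3.20 and were not tested. Eif4enif1, which carries eIF4E into the nucleus and to processing bodies, differed by -0.036 ± 0.085 (SE).

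Elongation factor 1A exists in a pair of forms, the widespread eEF1A1 and eEF1A2, which takes over in mature neurons and muscle. Eef1a2 was lowest 11.6, median 11.8 and highest 11.9 in control rats, and lowest 11.8, median 11.9 and highest 12.1 in learning rats. Of the learning arrays 5 lay above every control array, and replicates 1 and 2, at 11.8, lay among the controls. The difference was 0.18 ± 0.065 (SE), or 1.13-fold (limma; unadjusted p = 0.0168, adjusted p = 0.289).

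Eef1a1 did not differ in that direction. Its brightest probe set ranged from 14.03 to 14.34 in control and from 14.15 to 14.22 in learning rats, a difference of -0.047 ± 0.054 (SE), and the other differed by -0.12 ± 0.071 (SE). The learning arrays were tighter than the controls on the brightest probe set, with SDs of 0.02 and 0.12. RefSeq lists close copies of Eef1a1, and whether its probe sets also read them was not tested. Eef1a2 minus Eef1a1 within each array lay from -2.71 to -2.26 in control rats (median -2.45) and from -2.42 to -2.09 in learning rats (median -2.28). The groups overlap, and the means differ by 0.22 log2 units (exact permutation test, two-sided, p = 0.0186, with 3432 assignments and a smallest possible p of 0.000583). With the other Eef1a1 probe set it was 0.29 (exact permutation p = 0.0233, two-sided). Adjusted over these 2 values both p were 0.0233, but the 2 share the same Eef1a2 values. This quantity was chosen after its values were seen, with Eef1a2 already at an unadjusted p of 0.0168 in limma. The permutation p take no account of that choice among the members, so they describe the pair and are no test of it. Without the array of highest meningeal marker mean in each group it was 0.20 (exact permutation p = 0.0584).

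**Figure D4:**
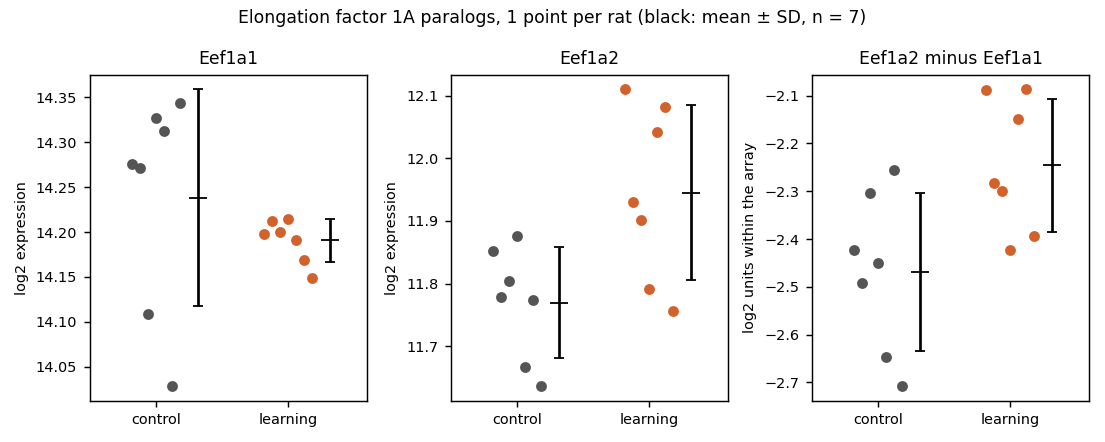
Expression (log2) of Eef1a1 on its brightest probe set and of Eef1a2, and the difference between them within each array (log2 units), as 1 point per rat with the mean ± SD of control and learning rats. In the right panel the learning rats lie higher by 0.22 on average and 4 control rats lie below every learning rat; the absolute value of that difference mixes probe properties and is no ratio of transcripts.

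Eef1b2, Eef1d and Eef1g encode subunits of eEF1B, the complex that recharges eEF1A. Eef1d, the delta subunit, ranged from 8.48 to 8.86 in control rats (median 8.76) and from 8.48 to 9.25 in learning rats (median 8.96). It gave the largest difference among members outside the 7 named above, 0.22 ± 0.11 (SE; unadjusted p = 0.0509, adjusted p = 0.382 in limma). Of the learning arrays 5 lay above every control array and replicate 3 lay below all of them. Eef1b2 differed by -0.067 ± 0.066 (SE) and Eef1g by 0.049 ± 0.061 (SE). Eef1e1, which sits in the aminoacyl-tRNA synthetase complex, differed by 0.080 ± 0.088 (SE). The 7 probe sets grouped as eEF1 had a median of 0.049, which was 0.013 without control replicate 1 and 0.0017 with the CA1 marker mean as a covariate. Of the 7, 4 were above 0, Eef1e1 among them, and 3 below. The median without Eef1e1 was not computed.

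Eef2, the translocase, was lowest 11.5, median 11.7 and highest 11.8 in control rats, and lowest 11.4, median 11.6 and highest 11.9 in learning rats. The means differ by -0.063 (95% confidence interval -0.21 to 0.086). Its kinase Eef2k, which depends on calcium and calmodulin and halts elongation, had 4 probe sets. One was tested at a mean of 4.00, just above the filter, and differed by -0.019 ± 0.086 (SE), while the other 3 had means from 1.85 to 2.88.

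Factors outside these complexes followed the same pattern of small values. Eif5a, which relieves ribosomes stalled on prolines, differed by -0.067 ± 0.072 (SE). Eif6, which keeps the large subunit from joining too early, differed by 0.066 ± 0.053 (SE). Eif4a3, the helicase of the exon junction complex, was at 9.30 ± 0.04 in control and 9.19 ± 0.14 in learning rats (SD, n = 7), which gives -0.11 ± 0.059 (SE; adjusted p = 0.447 in limma), and 5 learning arrays lay below every control array. Eef1akmt1 and Eef1akmt4, methyltransferases of eEF1A, differed by 0.16 ± 0.12 (SE) and 0.13 ± 0.073 (SE).

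The 8 members under the filter had means between 1.85 and 3.68. The one nearest to it from below was a second probe set of Eif4g1 at 3.68, and the tested member nearest from above was Eef2k at 4.00. For 3 genes, Eif4ebp1, Eif4ebp3 and Eif4e2, no probe set was tested. At such levels GCRMA compresses differences.

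Members did not move as a block across rats. The median deviation of the 58 probe sets from their own means lay between -0.049 and 0.018 in the control arrays and between -0.023 and 0.029 in the learning arrays. After subtracting group means, the 55 pairs of eIF3 genes had a median Pearson correlation of -0.016 over the 14 arrays, with pairs from -0.62 to 0.61. For the 63 pairs within eIF4F the median was 0.10. The pairs share arrays and normalization, so these values are descriptions.

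**Figure D5:**
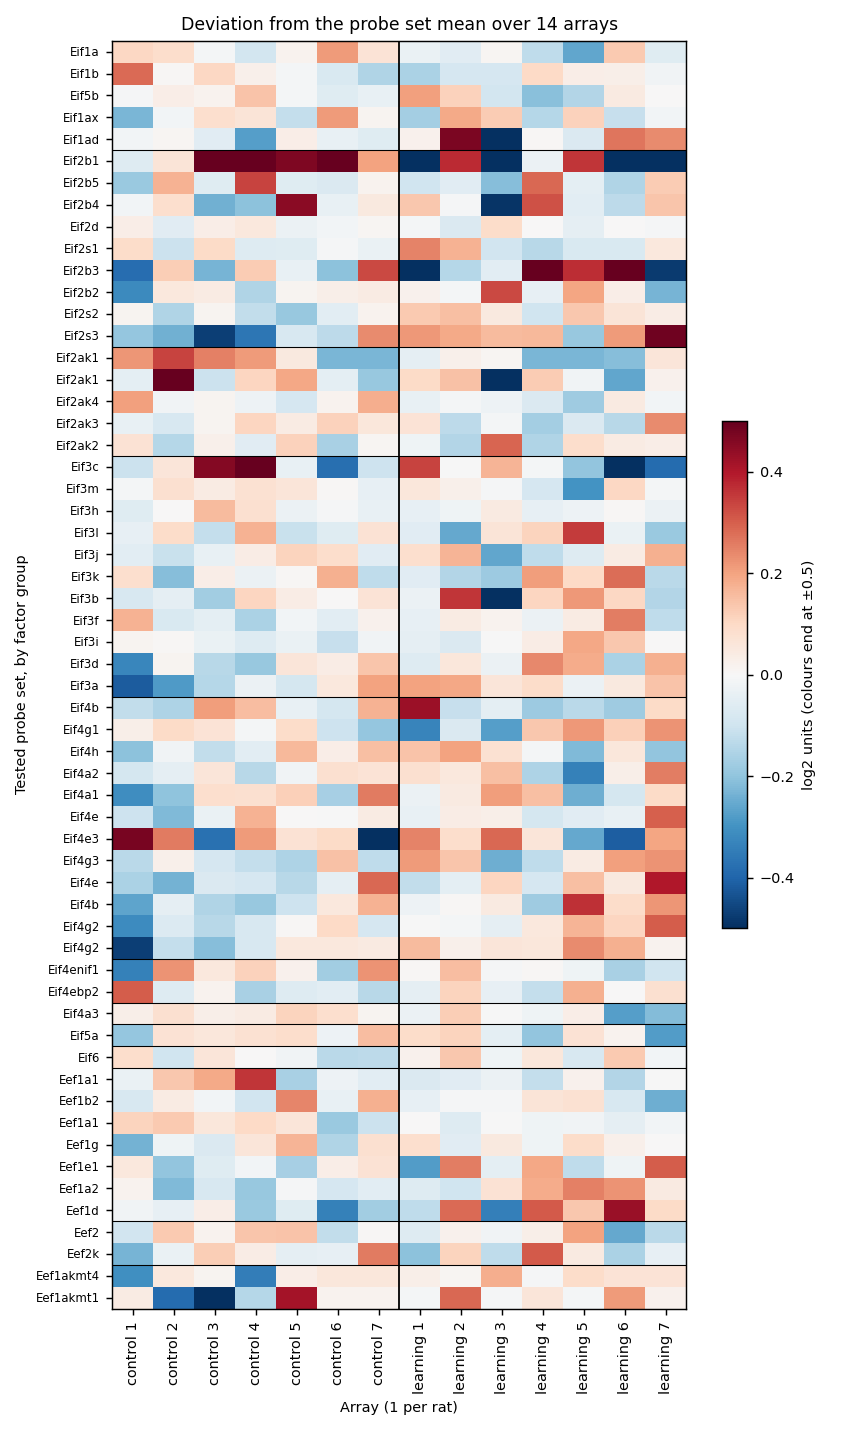
Deviation of each tested probe set from its own mean over the 14 arrays (colour, log2 units), with arrays in columns and probe sets in rows by factor group. No array is of one colour throughout; the widest deviations are in Eif2b1, Eif4e3 and Eif3c, and the Eif2s3 row is mostly blue in control and red in learning arrays.

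The CA1 marker mean differed between groups by 0.31 log2 units, with Wfs1 differing most of its markers. The difference between 3′ and 5′ control probe sets of beta-actin, a sign of RNA integrity, was 1.32 ± 0.094 in control and 1.41 ± 0.11 in learning arrays (SD, n = 7). With the CA1 mean as a covariate 6 members (10.3%) had an unadjusted p below 0.05, against 11.3% of all tested probe sets. With the beta-actin difference 11 (19.0%) had one, against 11.9% of all, and Eif2s2 was the one of the 7 above 0.05, at an unadjusted p of 0.062 in limma. With the CA1 covariate the second Eif4g2 probe set was the one of the 7 above 0.05, at an unadjusted p of 0.076 in limma, while Eif2s3 was at 0.32 and Eif2b1 at -0.88 log2 units. With the meningeal mean as a covariate the number was 7 (12.1%), against 12.2% of all. Without the array of highest meningeal mean in each group it was 5 (8.62%), against 11.3% of all. With any 1 array left out it ran from 5 without control replicate 1 (8.62%, against 13.1% of all) to 10 without control replicate 7 or learning replicate 3 (17.2%, against 14.3% and 13.4% of all). The adjusted threshold was passed by 0 members in every one of these fits.

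Genes that steer translation from outside the factor families were read from a fixed list of mTORC1 signalling, mRNA-binding, stress-response, termination and mitochondrial factors. Of its 75 tested probe sets, 0 passed the adjusted threshold and 11, or 14.7%, had an unadjusted p below 0.05, 4 higher and 7 lower in learning rats, against 13.1% of all. A difference of at least 0.2 in either direction was found for 21, or 28%, against 14.2% of all. The list was chosen with earlier results of these data known. Ddit4, a stress-induced inhibitor of mTORC1, ranged from 8.93 to 9.12 in control and from 8.42 to 8.99 in learning rats, with 6 learning arrays below every control array and an adjusted p of 0.233 in limma. Pum2, a repressor that binds 3′ ends of mRNAs, differed by -0.37 ± 0.12 (SE) on one of its probe sets and 0.059 on its second, and Pdpk1, a kinase upstream of Akt, by -0.48 ± 0.16 (SE) on one and -0.00096 on its second. Larp4b, an RNA-binding protein that promotes translation, differed in opposite directions on its probe sets, at 0.33 and -0.27. On the first, with the smallest p of the list, all 7 learning arrays (9.74 to 10.004) lay above every control array (9.33 to 9.64), and the adjusted p was 0.153 in limma. On the second the groups overlapped. Mtor itself, the kinase of mTORC1, differed by 0.038 (95% confidence interval -0.10 to 0.18). Its target Rps6kb1, the S6 kinase, differed by 0.18 ± 0.13 (SE) and by 0.092 on a dim probe set. Fmr1, whose protein represses translation at synapses, differed by -0.29 ± 0.12 (SE; adjusted p = 0.343 in limma).

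Start sites are shown for the genes of the 7 probe sets named above and for Eef1b2, which holds the longest pyrimidine run after Eif2s3, because mRNAs of translation factors are known for a pyrimidine tract at their first bases, through which mTORC1 and LARP1 control them. Each line gives 20 bases before and 25 after the RefSeq start (GRCr8), on the gene's strand, and capitals mark runs of at least 8 bases that are C or T and touch the stretch from 10 bases before to 20 after the start.
Eif2s3, chrX:62933675-62933719, minus strand: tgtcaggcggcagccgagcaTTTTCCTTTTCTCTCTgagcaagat
Eef1b2, chr9:72074071-72074115, plus strand: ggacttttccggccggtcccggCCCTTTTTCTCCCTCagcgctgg
Eif2s2, chr3:163855546-163855590, minus strand: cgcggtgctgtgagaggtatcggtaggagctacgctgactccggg
Eif2b1, chr12:37686555-37686599, plus strand: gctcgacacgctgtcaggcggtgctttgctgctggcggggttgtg
Eef1a2, chr3:188652609-188652653, minus strand: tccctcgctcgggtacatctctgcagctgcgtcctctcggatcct
Eif3a, chr1:269919001-269919045, minus strand: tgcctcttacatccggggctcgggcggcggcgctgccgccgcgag
Eif4g2, chr1:174628228-174628272, minus strand: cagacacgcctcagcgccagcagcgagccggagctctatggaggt

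The Eif2s3 mRNA begins with a run of 16 pyrimidines at its annotated first base and Eef1b2 has one of 15 that starts at the third base, while the windows of the other 5 genes hold none. Of 51 member genes with a RefSeq start, 12 (23.5%) held a run that touches the stretch around the start, against 18.4% of 27457 rat genes. The runs of Eef1g, Eif3d, Eif3k and Eif4g3 lie wholly before the start and so outside the annotated mRNA. The same length of A or G was found in 5.9% of members and 20.5% of all genes. The 12 tested genes with a pyrimidine run had a median difference of 0.046, with 9 above 0 and 3 below, and the 37 tested genes without one a median of 0.0050, with 19 above 0. Because runs before the start are counted, this does not divide genes by a tract in the mRNA, and the contrast was not tested. A run of letters in this window does not show that an mRNA is controlled through it, and RefSeq starts can be off by some bases.

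The pattern of Eif2s3, the member of smallest p, was most like that of Hip1, Rnf4 and Sema5a among the 7795 other probe sets with a single symbol. Their Pearson correlations with Eif2s3 over the 14 arrays were 0.90, 0.89 and 0.88 and their Spearman correlations 0.90, 0.93 and 0.82. Without the 2 arrays farthest from the median of Eif2s3 the Pearson values were 0.80, 0.84 and 0.91. They are the highest of many and were given no test, and the genes were higher in learning rats by 0.30, 0.23 and 0.29.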

How the data were processed

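Total RNA of the dentate gyrus of 14 rats (7 control, 7 learning) was hybridised to 1 array per rat, per the labels' protocols. Per the submitters' processing notes, the authors used GCRMA, which removes background by probe sequence and normalizes between arrays, and deposited 1 log2 value for each probe set. For the version and the settings of GCRMA, the sources used here give nothing. That the scale is log2 follows from the range of the values, -0.56 to 15.0, and differences near background are compressed on it.

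The 9387 probe sets whose mean reached 4 entered limma 3.58.1 (lmFit, eBayes) in R 4.3.3, control probe sets excluded, for learning minus control with no covariate and Benjamini-Hochberg adjustment over all of them at 0.05. The number of arrays limits the precision. The fit was tested on simulated data in 20 runs per size with 200 changed probe sets. Symbols came from the platform annotation; the 56 member genes matched the RefSeq gene table by gene ID. Figures were drawn with matplotlib 3.10.9.

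The members, the pathway list and the marker lists were chosen with earlier results of these data known. Named were members with an unadjusted p below 0.05, the brightest member of each factor group and a fixed list of factors, with all probe sets of those genes; of the pathway list, the 4 of smallest p and 4 fixed genes, of which Pabpc1 is not reported here; and the 3 genes most like the member of smallest p. Members outside this rule are given to complete their complexes and were chosen after their values were seen. No mossy cell marker was measured above the filter. Alternatives were other filters, normalizations, priors, array weights, a replicate block, a floor at 3, marker and RNA covariates, and each array left out. The paralog difference and the fit without the arrays of highest meningeal mean were chosen later, after seeing the data.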

Additional observations from a re-analysis of the deposited data

Results flagged for a closer look

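In each group of 7, the highest or lowest array of the 38 named and tested members was set against its neighbours by Dixon's gap test at the 95% level. Of 76 groups, 3 held an array that stood apart, and chance gives about 1 in 20. Eif4e on its bright probe set was at 9.86 in learning replicate 7, while the next learning array was at 9.59. On its dim probe set Eif4e was at 4.33 in control replicate 7, with the next control array at 3.99. Eif4ebp2 was at 7.30 in control replicate 1, with the next control array at 7.02.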

How the results depend on the processing

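Over 28 alternatives, 0 members passed the adjusted threshold, and the 7 members with an unadjusted p below 0.05 kept their direction wherever they were tested. The number at that p moved from 7 to 11 with the beta-actin 3′ minus 5′ difference as covariate, and lay between 5 and 10 with 1 array left out. The median of eIF2 and eIF2B moved to 0.066 with the beta-actin covariate and that of eEF1 to 0.0017 with the CA1 covariate; the median of eIF2 and eIF2B was -0.0059 and that of eIF3 -0.0022 without the arrays of highest meningeal mean; the causes were not tested. Of 38 named members, 28 kept their sign throughout. Signs turned for Eif1ax (0.0038 with quantile normalization, 0.0021 with median centring, 0.047 with the CA1 covariate, 0.034 without the arrays of highest meningeal mean), Eif4g1 (-0.057 with the CA1 covariate, -0.0054 without those arrays), Eif4b (0.020 without those arrays on its dimmer probe set), and, with the beta-actin covariate, Eif4a2 (-0.0038), Eef2k (0.028) and Eif2ak2 (-0.028). With 1 array left out, Eif4a2 ranged from -0.019 to 0.079, Eif2s1 from -0.015 to 0.049, Eif1ax from -0.042 to 0.031, Eef2k from -0.072 to 0.022, Eif2ak2 from -0.0062 to 0.067, Eif2b5 from -0.094 to 0.010, Eif4a1 from -0.0089 to 0.086, Eif4e from -0.0043 to 0.074 and Eif4g1 from -0.032 to 0.060. The labels describe no pairing, so the main fit did not pair the samples by number. Same-numbered rats of the groups deviated together in 4 of 7 pairs (correlation above 0.1, range -0.28 to 0.26). Of the 7 control arrays, 4 correlated best with their own number. Both are a hint of a shared factor by number that the labels do not settle. With the replicate number as a block 9 members (15.5%, against 14.2% of all probe sets) had an unadjusted p below 0.05 and 0 passed adjustment. Values near background are compressed, which limits Eef2k, Eif2b5 and the dim Eif4e probe set.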
